A study of Mus musculus with 4 samples.

Results

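The Notch receptors, their vascular ligands and the Hey target genes were followed through the open chromatin of mouse heart nuclei. The group held 10 protein-coding genes, found by symbol among the 21728 protein-coding genes of the mouse annotation. It comprised the receptors Notch1, Notch2, Notch3 and Notch4, the ligands Dll4, Jag1 and Jag2, and the target genes Hey1, Hey2 and Heyl. From general knowledge of the heart, 5 of them are mainly endothelial (Notch1, Notch4, Dll4, Jag2 and Hey1), 2 belong to mural cells, the pericytes and smooth muscle cells around vessels (Notch3 and Heyl), 1 is a gene of ventricular myocytes (Hey2), and 2 are used by several cell types (Notch2 and Jag1). Neither the rule for the genes nor the classes use a measured value, but both were set with earlier results of these data known. A class names where a gene is best known, and its genes can also be active in other cells.

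Whole hearts came from male mice of 8 to 12 weeks on a C57BL/6 background that carried both the NuTRAP allele and the Cdh5-Cre transgene. In these animals, nuclei of cells with a history of Cdh5 promoter activity carry GFP, and flow cytometry separated GFP+ (endothelial) nuclei from all other (GFP-) nuclei of hearts of the same genotype. ATAC-Seq, in which the Tn5 transposase cuts and tags accessible DNA, was made from 100 to 50000 nuclei, with 2 libraries from GFP- and 2 from GFP+ nuclei. The limits of the model are those of a lineage mark: blood cells that descend from hemogenic endothelium can carry it, and all GFP- cell types were pooled.

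The authors called peaks from both libraries of a population together, which left a list of 78912 peaks for GFP- nuclei and 65008 for GFP+ nuclei, covering 52.1 and 41.8 Mb. There is no value per library, no read depth and no replicate error in these lists, and all differences given here are therefore descriptions without a test. To compare lists of different length, the peaks of a list were ordered by area, the caller's signal summed along the peak, and given ranks from 0 (smallest, and also used for no peak) to 100 (largest). Starts or regions whose GFP+ rank exceeded the GFP- rank by more than 20 points are called higher, and those more than 20 points below are called lower. Peaks count as shared when they overlap a peak of the other list by at least 1 bp.

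The sort was checked with marker genes. Of 10 endothelial marker genes, 7 had a higher start rank in GFP+ nuclei, among them Cdh5, which rose from 18.0 to 85.3, and 1, Tek, went from 81.1 to 54.1. All 10 myocyte markers had a start peak in both lists, at ranks of 79.6 to 100.0 in GFP+ nuclei. Of 10 mural markers, Notch3 among them, 9 had a start peak in GFP- nuclei and 4 in GFP+ nuclei. Fibroblast markers had start peaks for 8 of 10 genes in GFP- and 3 in GFP+ nuclei, and only 1 of 8 macrophage genes (Cd68) had a start peak in either list. Since the nuclei were measured in bulk, fewer cells of a type and less open chromatin per cell cannot be told apart.

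Notch receptors are single-pass membrane proteins that are cut when a ligand on a neighbouring cell binds them. The freed intracellular part enters the nucleus, joins the DNA-binding protein RBPJ and switches on genes such as those of the Hes and Hey repressors. In vessels, Dll4 acting on Notch1 and Notch4 restrains sprouting and sets arterial identity, while Jag1 on endothelium acts on Notch3 of the mural cells next to it, and Hey2 helps to keep ventricular myocytes apart from atrial ones. Enhancers known to be active in arterial endothelium lie in an early intron of Notch1, in intron 3 of Dll4 and upstream of Dll4.

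At their transcription starts, 1 of the 10 genes (Dll4) was higher in GFP+ nuclei and 2 (Notch3 and Heyl) were lower. Over all 13624 protein-coding genes with a start peak in either list, 1.95% were higher and 7.34% lower, with a median rank difference of -0.81 points. By area, the other 7 genes kept ranks within 6 points of each other and above 90 in both lists, so that most of these starts were among the largest peaks of either population. By area per bp, which takes out the length of a peak, the best starts of some of the 7 lay further apart. Notch1 ranked 74.1 in GFP- and 58.1 in GFP+ nuclei, Jag2 62.8 and 79.5, Notch4 92.0 and 85.1, and Hey2 84.2 and 85.1. The best start can differ between the lists. The 58.1 of Notch1 belongs to a start at -12.8 kb, and its main start ranked 74.1 and 57.4. The 62.8 of Jag2 belongs to a peak in intron 5, and its main start ranked 52.0 and 79.5. A start peak overlaps an annotated start within 250 bp, and a gene takes the rank of its best start.

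**Figure D1:**
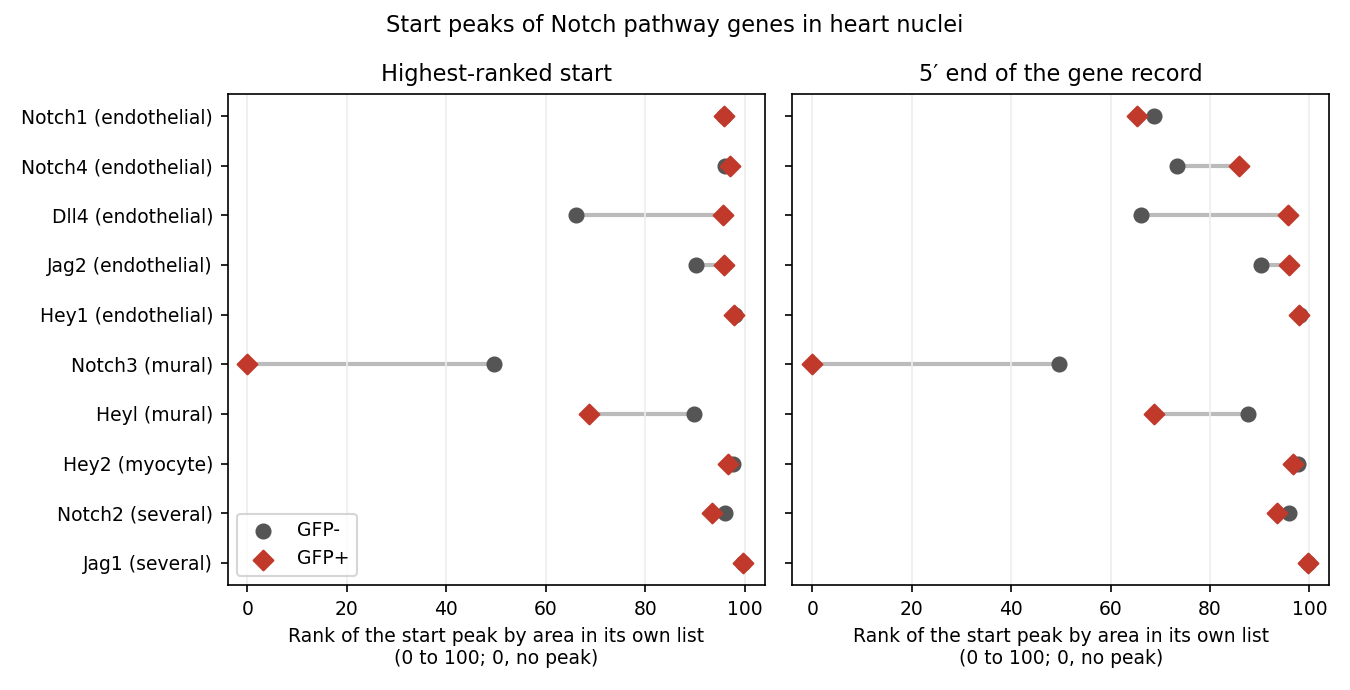
Rank of the start peak by area in its own list (0 to 100, with 0 for no peak) for the 10 genes, grouped by class, with GFP- nuclei as grey circles and GFP+ nuclei as red diamonds. The left panel takes each gene's best start and the right panel the 5′ end of its record; Dll4 moves right, Notch3 and Heyl move left, and the remaining genes stay close in the left panel, while Notch4 rises from 73.3 to 85.7 in the right panel.

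Among the receptors, Notch1 had a start rank of 95.9 in GFP- and 95.8 in GFP+ nuclei, from areas of 6677 and 6032. Notch1 has a second annotated protein-coding start at -12.8 kb, at the 5′ end of its record, and this start also differed little, with ranks of 68.7 and 65.4. Notch2 had ranks of 96.0 and 93.4. Notch4, a receptor largely confined to endothelium, had its best-ranked start peak not at its main start but close to its 3′ end, near short non-coding transcripts, with ranks of 96.0 and 97.0. The main Notch4 start ranked 73.3 in GFP- and 85.7 in GFP+ nuclei, a rise of 12.4 points that was larger than that at the 5′ ends of 96.9% of genes but stayed under the 20-point limit. By the -log10 p of the summit this start rose by 23.1 points, from 40.3 to 63.3, and by area per bp by 38.7 points, from 28.9 to 67.7, both past the limit. When only the 5′ end of each gene record is read, 1 of the 10 genes (Dll4) was higher and 1 (Notch3) lower, beside 2.11% and 7.72% of 12577 genes. Notch3 was the only receptor with a start peak in a single list. Its GFP- peak of 339 bp (chr17:32166772-32167110) ranked 49.6, with an area of 739 and a summit -log10 p of 5.83, and no GFP+ peak overlapped any of the 3 annotated Notch3 starts. Over all genes with a start peak, 4.71% had one in GFP- nuclei only and 1.46% in GFP+ nuclei only.

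Of the ligands, Dll4 went from 66.1 to 95.6. Of the genes with a start peak, 98.8% had a smaller difference. Jag2 ranked 90.3 and 95.9, a rise of 5.64 points that exceeded that of 94.8% of genes. The same start peak of Jag2 rose by 13.7 points by summit p, from 68.3 to 82.0, and by 27.5 points by area per bp, from 52.0 to 79.5. Jag1, the ligand that endothelium and mural cells share, had one of the largest start peaks of the genome in both lists. It ran over 4227 bp in GFP- and 3676 bp in GFP+ nuclei and held place 285 of 78912 and place 166 of 65008 by area.

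Of the Hey targets, whose products are transcriptional repressors, Heyl alone passed the limit. Hey1, which responds to Notch in endothelium, ranked 98.1 in GFP- and 97.8 in GFP+ nuclei. Hey2, classed here as the myocyte gene, ranked 97.7 and 96.7. Start peaks in GFP+ nuclei were also found for all 10 myocyte markers. Which cell types gave the Hey2 peaks cannot be told from pooled lists. In the paper's flow cytometry, GFP+ nuclei did not stain for PCM-1, a marker of cardiomyocyte nuclei. What part myocyte nuclei among the sorted GFP+ nuclei have in these peaks was not tested here. Heyl fell by 21.2 points between its best starts, from 89.9 to 68.7. At its main start the ranks were 87.7 and 68.7, a fall by 18.9 points that lies just inside the 20-point limit, and at a further start 6.20 kb into the gene they were 89.9 and 34.1. By class, the median start difference was 0.98 points for the 5 endothelial genes, -35.4 for the 2 mural genes, -1.02 for the myocyte gene and -1.24 for the genes of several cell types. The endothelial median is the value of Notch4 at the peak close to its 3′ end. At the 5′ ends of the gene records, the medians were 5.64 points for the endothelial and -34.2 for the mural genes, with the other classes unchanged. In the mural marker list, which includes Notch3 itself, 4 of 10 genes were lower: Notch3, Pdgfrb, Acta2 and Kcnj8. None was higher, and 7.34% of all genes with a start peak were lower. Ranks of this list ran from 0 to 76.1 in GFP+ nuclei against 0 to 85.6 in GFP- nuclei. Of 10 fibroblast markers 6 were lower and none was higher. What part the number of mural nuclei in each sort has in the differences of the mural genes was not tested.

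Dll4 (chr2:119325784-119335962) had the widest change in form at its start. GFP- nuclei had 3 separate peaks there, with summits at -1.03, -0.12 and +1.48 kb from the start and ranks of 7.14, 66.1 and 34.8. In GFP+ nuclei a single peak of 2921 bp covered all 3, with its summit at +1.48 kb in intron 3. The summed covered length rose from 1710 to 2921 bp. Because a merged peak gathers area over its length, the measures that do not grow with length were read as well: by area per bp the rank of the start peak went from 38.0 to 62.4, and by the -log10 p of the summit from 54.4 to 83.1. All 3 measures thus ranked the GFP+ peak over the Dll4 start more than 20 points above the GFP- start peak. The GFP+ summit lies in intron 3 and the GFP- summit at -0.12 kb, so none of the 3 measures isolates the start from the intron 3 element.

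Upstream of Dll4 the lists differed in the presence of peaks. GFP+ nuclei had a peak without a GFP- partner at -11.3 kb (rank 52.7, 918 bp, area 749) and a small one at -13.0 kb (rank 5.19, area 228), close to the caller's minimum area of 200. A shared region at -3.08 kb ranked 7.07 in GFP- and 39.4 in GFP+ nuclei, a rise that was within the limit by summit p (11.6 points) and by area per bp (6.46 points). Further GFP+ peaks without a GFP- partner lay at -27.2 kb (rank 35.0), nearest to Vps18, and at +19.2 kb (rank 23.7), nearest to Chac1. All 12 GFP- peaks of the Dll4 window overlapped a GFP+ peak. By Euclidean distance over the pair of start ranks, the genes most like Dll4 were Tk1 and Afmid, with the same ranks as each other (69.9 and 92.1), and Med13, at distances of 5.18 and 5.41 points.

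The Dll4 elements shown are the upstream peak of GFP+ nuclei alone at -11.3 kb and the intron 3 summit. Each stretch is the 300 bp around the summit of the GFP+ peak on the plus strand of GRCm38 (mm10), chr2:119314311-119314610 and chr2:119327115-119327414. Capitals mark exact matches, on either strand, to an ETS word (AGGAAGT) or an RBPJ word (GTGGGAA), of 9 words searched. Each of these stretches holds 1 RBPJ word and no ETS word.
Dll4 -11.3 kb: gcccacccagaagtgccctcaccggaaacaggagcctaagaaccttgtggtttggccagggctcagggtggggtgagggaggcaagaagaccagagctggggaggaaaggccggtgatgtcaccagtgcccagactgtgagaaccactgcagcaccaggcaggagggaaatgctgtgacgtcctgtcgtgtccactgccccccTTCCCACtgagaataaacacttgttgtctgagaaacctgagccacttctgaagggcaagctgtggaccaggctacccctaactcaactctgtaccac
Dll4 +1.48 kb, intron 3: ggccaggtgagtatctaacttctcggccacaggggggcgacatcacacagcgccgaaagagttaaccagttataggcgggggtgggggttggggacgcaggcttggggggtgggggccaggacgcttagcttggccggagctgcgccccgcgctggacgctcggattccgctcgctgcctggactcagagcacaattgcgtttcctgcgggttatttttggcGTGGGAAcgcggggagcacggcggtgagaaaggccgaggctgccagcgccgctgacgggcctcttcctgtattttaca

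Notch1 (chr2:26457903-26516663, minus strand) had nearly equal ranks by area at its main start, where area per bp gave 74.1 and 57.4, and unequal ranks in intron 2. Within this intron GFP- nuclei had 7 peaks covering 4843 bp and GFP+ nuclei had 8 peaks covering 8711 bp. The median rank of these peaks was 10.1 in GFP- and 57.5 in GFP+ nuclei. Shared regions at +5.95, +10.8 and +12.9 kb from the main start went from 10.1 to 66.2, from 9.66 to 77.0 and from 39.3 to 84.8, and that at +3.62 kb from 4.82 to 30.4. A region at +16.3 kb in the same intron went the other way, from 79.6 to 59.3, and a GFP+ peak at +2.82 kb (rank 54.7, 998 bp) had no GFP- partner. In intron 15, the region at +28.6 kb went from 64.3 to 85.5. By summit p the rises at +5.95, +10.8 and +12.9 kb were 39.5, 39.1 and 59.5 points, and by area per bp they were 7.03, 35.0 and 64.3 points. The rise at +3.62 kb was 32.2 points by summit p and 9.83 by area per bp. The fall at +16.3 kb passed the limit by all 3 measures, with 20.3 points by area, 30.1 by summit p and 28.7 by area per bp. A further shared region of intron 2, at +9.21 kb, differed by 2.94 points by area (52.8 and 55.7) but fell by 44.4 points by summit p and by 31.1 points by area per bp.

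Further upstream, 4 GFP+ peaks between -46.6 and -39.6 kb had no GFP- partner, with ranks of 26.1, 49.4, 3.21 and 18.6, in the stretch between Notch1 and Egfl7, an endothelial gene that encodes a secreted Notch antagonist. In total 7 of 31 GFP+ peaks of the Notch1 window lacked a GFP- partner. Of the 26 GFP- peaks 3 lacked a GFP+ partner, and the highest of them, at -11.6 kb near the alternative start, ranked 72.4. At the 3′ end of the gene, a region in exon 34 at +45.3 kb went from 66.1 to 30.9. It also fell by 29.5 points by summit p and by 26.1 points by area per bp.

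The Notch1 stretches shown are the intron 2 regions whose rise exceeded 20 points by area, by area per bp and by summit p alike, and the upstream GFP+ peak with the highest rank, at chr2:26492896-26493195, chr2:26490796-26491095 and chr2:26547541-26547840. As for Dll4, they are 300 bp around the GFP+ summit on the plus strand, opposite to the direction of the gene, with ETS and RBPJ words in capitals. The region at +10.8 kb holds 2 ETS words, that at +12.9 kb 1 RBPJ word, and the upstream peak 1 of each.
Notch1 +10.8 kb, intron 2: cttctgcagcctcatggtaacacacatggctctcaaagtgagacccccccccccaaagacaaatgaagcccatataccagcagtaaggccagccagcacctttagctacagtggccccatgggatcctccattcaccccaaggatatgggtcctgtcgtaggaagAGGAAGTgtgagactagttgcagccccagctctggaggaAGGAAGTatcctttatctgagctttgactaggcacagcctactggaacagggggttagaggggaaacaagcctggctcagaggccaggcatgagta
Notch1 +12.9 kb, intron 2: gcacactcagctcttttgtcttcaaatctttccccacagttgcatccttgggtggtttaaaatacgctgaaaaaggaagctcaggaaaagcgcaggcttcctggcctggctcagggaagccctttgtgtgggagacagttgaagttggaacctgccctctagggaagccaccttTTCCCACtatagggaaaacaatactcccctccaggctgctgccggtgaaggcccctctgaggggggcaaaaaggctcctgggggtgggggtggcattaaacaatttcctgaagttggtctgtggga
Notch1 -43.9 kb: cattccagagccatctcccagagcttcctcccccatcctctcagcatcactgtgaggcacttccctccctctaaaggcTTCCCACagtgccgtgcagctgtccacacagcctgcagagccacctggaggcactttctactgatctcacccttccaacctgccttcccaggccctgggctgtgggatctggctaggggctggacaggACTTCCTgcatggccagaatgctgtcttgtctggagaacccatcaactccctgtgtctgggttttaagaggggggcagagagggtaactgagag

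**Figure D2:**
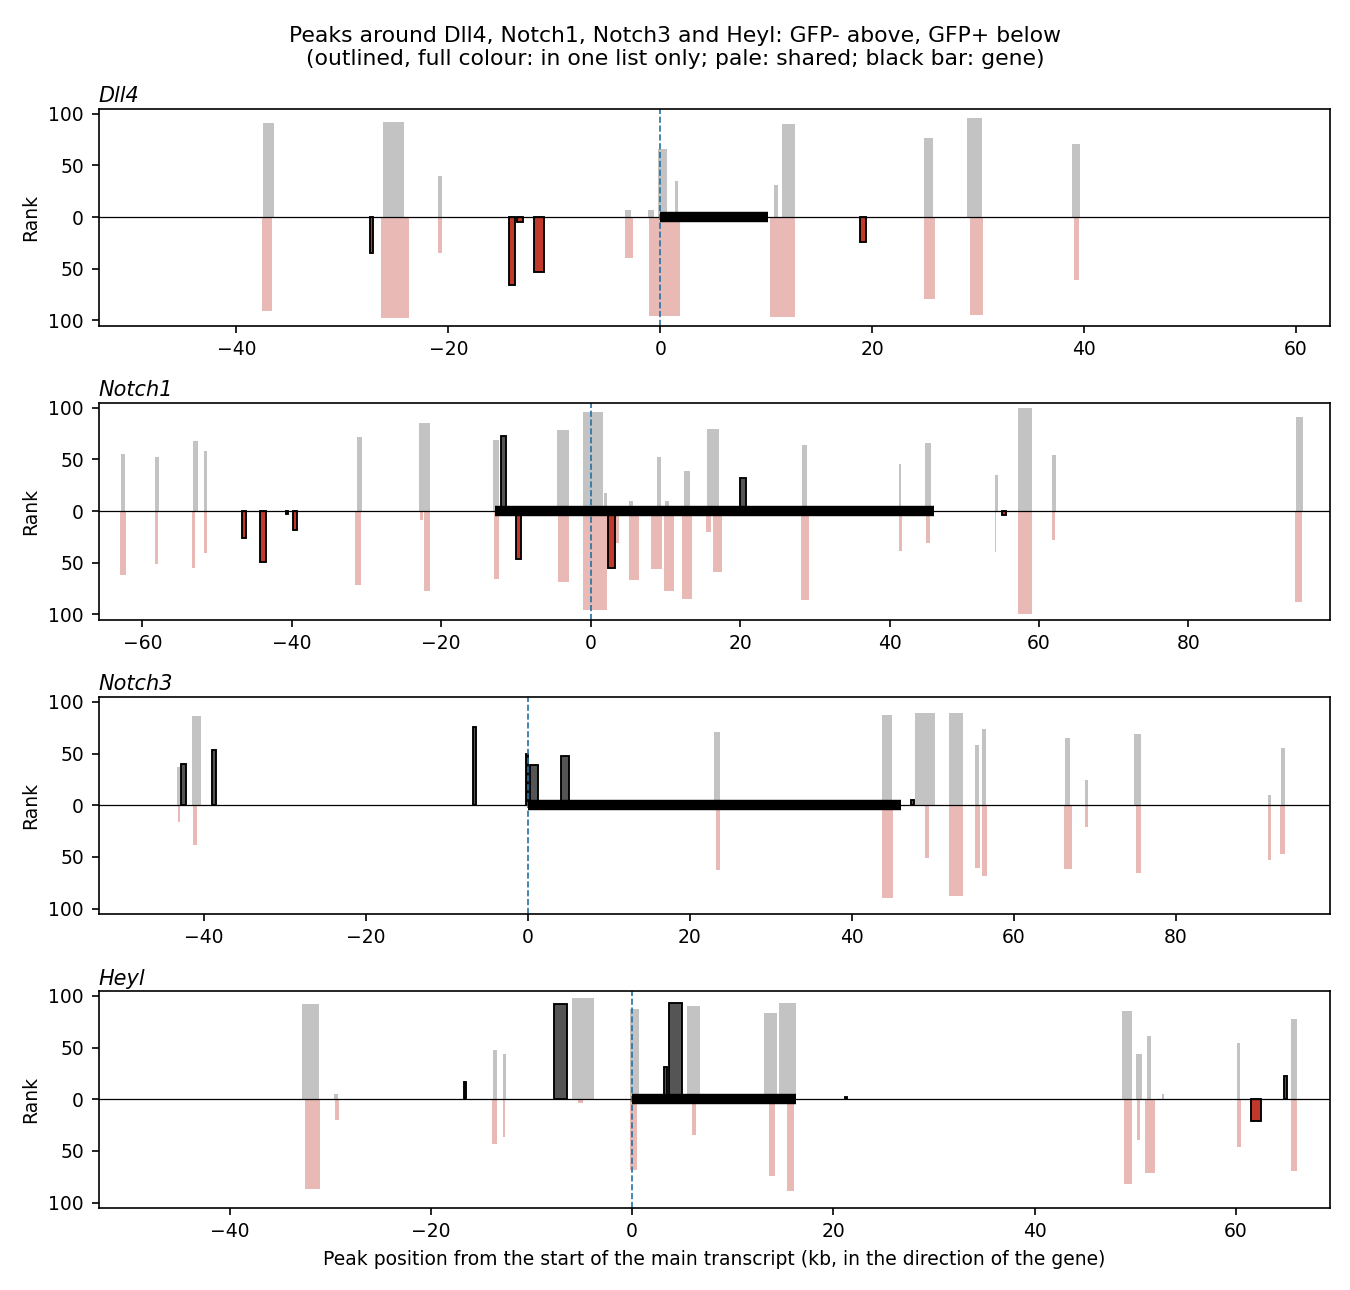
Peaks in the Dll4, Notch1, Notch3 and Heyl windows by distance from the main start (kb, in the direction of the gene), with rank in its own list as height, GFP- nuclei above the line in grey and GFP+ nuclei below in red. Outlined bars in full colour are peaks without a partner in the other list, pale bars are shared peaks, and the black bar is the gene; red outlined bars lie upstream of Dll4 and around Notch1, and grey ones around the starts of Notch3 and Heyl.

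Notch3 (chr17:32120820-32166852, minus strand), the receptor of pericytes and smooth muscle, had no GFP+ peak around its start. Beside the start peak, GFP- nuclei had peaks in intron 1 at +0.71 kb (rank 38.5), in intron 2 at +4.55 kb (rank 47.9) and upstream at -6.59 kb (rank 76.0, -log10 p of 9.19), and none of the 4 had a GFP+ partner. At the distal end of the gene the lists were alike: a region in exon 24 ranked 71.2 and 62.7, and one in exon 33, the last exon, ranked 87.1 and 90.2. In the downstream flank a region at +49.5 kb went from 89.1 to 51.2, a fall by 37.8 points that was 13.4 points by area per bp. A single region of the window rose by more than 20 points, at +91.4 kb and nearest to Rrp1b, from 10.3 to 52.9. Elovl6, Gpr45 and Gpr20 had the start ranks most like those of Notch3, at distances of 0.0228 to 0.0950 points, each with a GFP- peak only.

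Heyl (chr4:123233556-123249875) held the shared region with the largest difference of all windows, which fell by 94.5 points. This was its largest GFP- peak, 2217 bp with the summit at -5.07 kb, which ranked 98.3 with an area of 9292. The only GFP+ peak within it was 440 bp long and ranked 3.83 with an area of 220. Nearby, GFP- peaks at -7.27 kb (rank 92.4, 1236 bp) and in intron 1 at +4.39 kb (rank 93.6, 1219 bp) had no GFP+ partner at all, and they were the highest-ranked unpartnered peaks of any of the 10 genes. The falls were not uniform along the gene. By area, regions in exon 5 at +13.8 and +15.7 kb went from 83.3 to 74.4 and from 93.2 to 88.8. The downstream regions near Pabpc4 differed by no more than 10.3 points by area in either direction. By area per bp, the exon 5 regions rose by 21.1 and 17.0 points, and the regions near Pabpc4 differed by -32.1 to 15.5 points.

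The mural stretches shown are the 3 Heyl elements and the upstream and intron 2 peaks of Notch3, all of them 300 bp around the GFP- summit on the plus strand, at chr4:123226140-123226439, chr4:123228341-123228640, chr4:123237794-123238093, chr17:32173295-32173594 and chr17:32162150-32162449. Of the 9 words, the Notch3 intron 2 stretch holds 1 RBPJ word, in capitals. The other 4 stretches hold none of the 9, which says only that those letters are not in these windows.
Heyl -7.27 kb: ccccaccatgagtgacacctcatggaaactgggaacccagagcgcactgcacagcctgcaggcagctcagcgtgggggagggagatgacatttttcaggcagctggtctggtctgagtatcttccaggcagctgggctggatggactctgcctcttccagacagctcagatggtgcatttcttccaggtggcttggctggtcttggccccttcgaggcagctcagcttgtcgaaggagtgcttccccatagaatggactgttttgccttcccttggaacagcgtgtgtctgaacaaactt
Heyl -5.07 kb: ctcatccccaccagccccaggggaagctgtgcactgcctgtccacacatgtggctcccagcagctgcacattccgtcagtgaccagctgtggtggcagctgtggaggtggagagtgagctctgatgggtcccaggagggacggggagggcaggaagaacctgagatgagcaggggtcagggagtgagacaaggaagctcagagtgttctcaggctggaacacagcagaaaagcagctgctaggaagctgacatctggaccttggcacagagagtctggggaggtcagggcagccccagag
Heyl +4.39 kb, intron 1: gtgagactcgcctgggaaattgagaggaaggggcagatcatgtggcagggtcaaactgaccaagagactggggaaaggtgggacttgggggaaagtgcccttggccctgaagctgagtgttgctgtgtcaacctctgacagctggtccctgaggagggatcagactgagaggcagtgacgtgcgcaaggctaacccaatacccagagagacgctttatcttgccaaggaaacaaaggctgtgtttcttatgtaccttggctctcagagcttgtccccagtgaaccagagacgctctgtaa
Notch3 -6.59 kb: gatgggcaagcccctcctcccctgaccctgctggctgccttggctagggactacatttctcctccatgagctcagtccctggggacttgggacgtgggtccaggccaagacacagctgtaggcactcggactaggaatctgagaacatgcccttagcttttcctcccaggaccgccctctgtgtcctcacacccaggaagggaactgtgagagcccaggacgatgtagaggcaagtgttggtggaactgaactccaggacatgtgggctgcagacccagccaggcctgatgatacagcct
Notch3 +4.55 kb, intron 2: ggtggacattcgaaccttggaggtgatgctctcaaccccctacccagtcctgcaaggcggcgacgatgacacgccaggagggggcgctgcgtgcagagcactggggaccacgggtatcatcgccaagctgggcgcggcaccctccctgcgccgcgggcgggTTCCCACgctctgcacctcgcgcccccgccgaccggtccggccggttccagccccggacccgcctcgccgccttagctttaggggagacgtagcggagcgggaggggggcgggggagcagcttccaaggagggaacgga

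The window of Jag2 (chr12:112907819-112929776, minus strand), a ligand of arterial endothelium, moved by area in the direction of Dll4 with smaller steps. Of its 14 shared regions 11 had a greater rank by area in GFP+ nuclei and 3 a smaller one. The median was 6.95 points and the range -5.64 to 18.5 points, so that none crossed the limit by area. By area per bp these regions had no common direction, with differences of 27.5 points at the start and -9.21 points at -3.04 kb. Of the window's peaks, 5 of 15 in GFP- and 9 of 20 in GFP+ nuclei lay nearest to Jag2 itself. The others were nearest to Gpr132, Nudt14, Brf1 or Btbd6. GFP+ nuclei had 6 of 20 peaks without a GFP- partner, the highest of them in intron 12 at +15.0 kb (rank 39.2), and all 15 GFP- peaks had a GFP+ partner. Notch4 (chr17:34564268-34588503) had no GFP+ peak without a partner among 9, in a window crowded by 9 other protein-coding genes. A GFP- peak at -31.3 kb (rank 39.9) and 2 in the 3′ flank lacked a GFP+ partner.

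Hey1 (chr3:8663359-8667256, minus strand) had few peaks and no other protein-coding gene in its window. Its peak at -18.1 kb ranked 45.2 in GFP- and 62.2 in GFP+ nuclei, and the other shared regions differed by less than 5 points. A GFP- peak at +1.35 kb (rank 20.2) had no GFP+ partner. Hey2 (chr10:30832359-30842801, minus strand) had 3 shared regions, with differences of -1.02, -1.34 and -6.38 points, and the only unshared peak of its window was a small GFP+ peak at +17.6 kb (rank 7.58). The stretch upstream of the Hey2 start is shown since it alone, of the 8 promoters found in the RefSeq promoter table for these genes, held any of the 9 words within 250 bp upstream. It held 1 RBPJ word, as 5.42% of 32851 promoters did. The stretch runs 5′ to 3′ in the direction of the gene over 232 bp on the minus strand (chr10:30842802-30843033) and ends at the base before the annotated transcript.
Hey2 upstream: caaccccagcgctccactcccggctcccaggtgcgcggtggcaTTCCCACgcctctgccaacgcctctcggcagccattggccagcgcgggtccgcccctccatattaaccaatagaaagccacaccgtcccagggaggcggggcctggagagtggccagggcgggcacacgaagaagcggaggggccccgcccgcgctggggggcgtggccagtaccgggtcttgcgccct

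The genes of several cell types had many GFP- peaks without a GFP+ partner. Notch2 (chr3:98013527-98150361) had 19 intron peaks covering 10130 bp in GFP- nuclei and 6 covering 2674 bp in GFP+ nuclei. All 6 GFP+ intron peaks lay in intron 1 and were shared, whereas 13 of the 19 GFP- intron peaks were unshared. In intron 1 GFP- nuclei had 11 peaks, in intron 2 they had 5, and all 5 of the latter were unshared, with ranks from 6.60 to 70.8. Of the shared Notch2 regions 3 were lower, at +11.1, +15.7 and +29.5 kb in intron 1, and none was higher. By area per bp, those at +11.1 and +29.5 kb differed by 1.25 and -2.74 points, and their peaks measured 256 and 336 bp in GFP+ against 633 and 1105 bp in GFP- nuclei. Jag1 (chr2:137081456-137116644, minus strand) had unshared GFP- peaks in intron 4 at +15.4 kb (rank 77.7), in intron 5 at +19.3 kb (rank 55.5) and in intron 21 at +31.1 kb (rank 53.9). Downstream of Jag1, a shared region at +48.7 kb ranked 82.2 in GFP- and 2.85 in GFP+ nuclei. In the opposite direction, a Jag1 region in intron 2 at +6.60 kb went from 27.6 to 61.7, and a GFP+ peak at +24.4 kb in intron 10 (rank 36.4) had no partner.

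**Figure D3:**
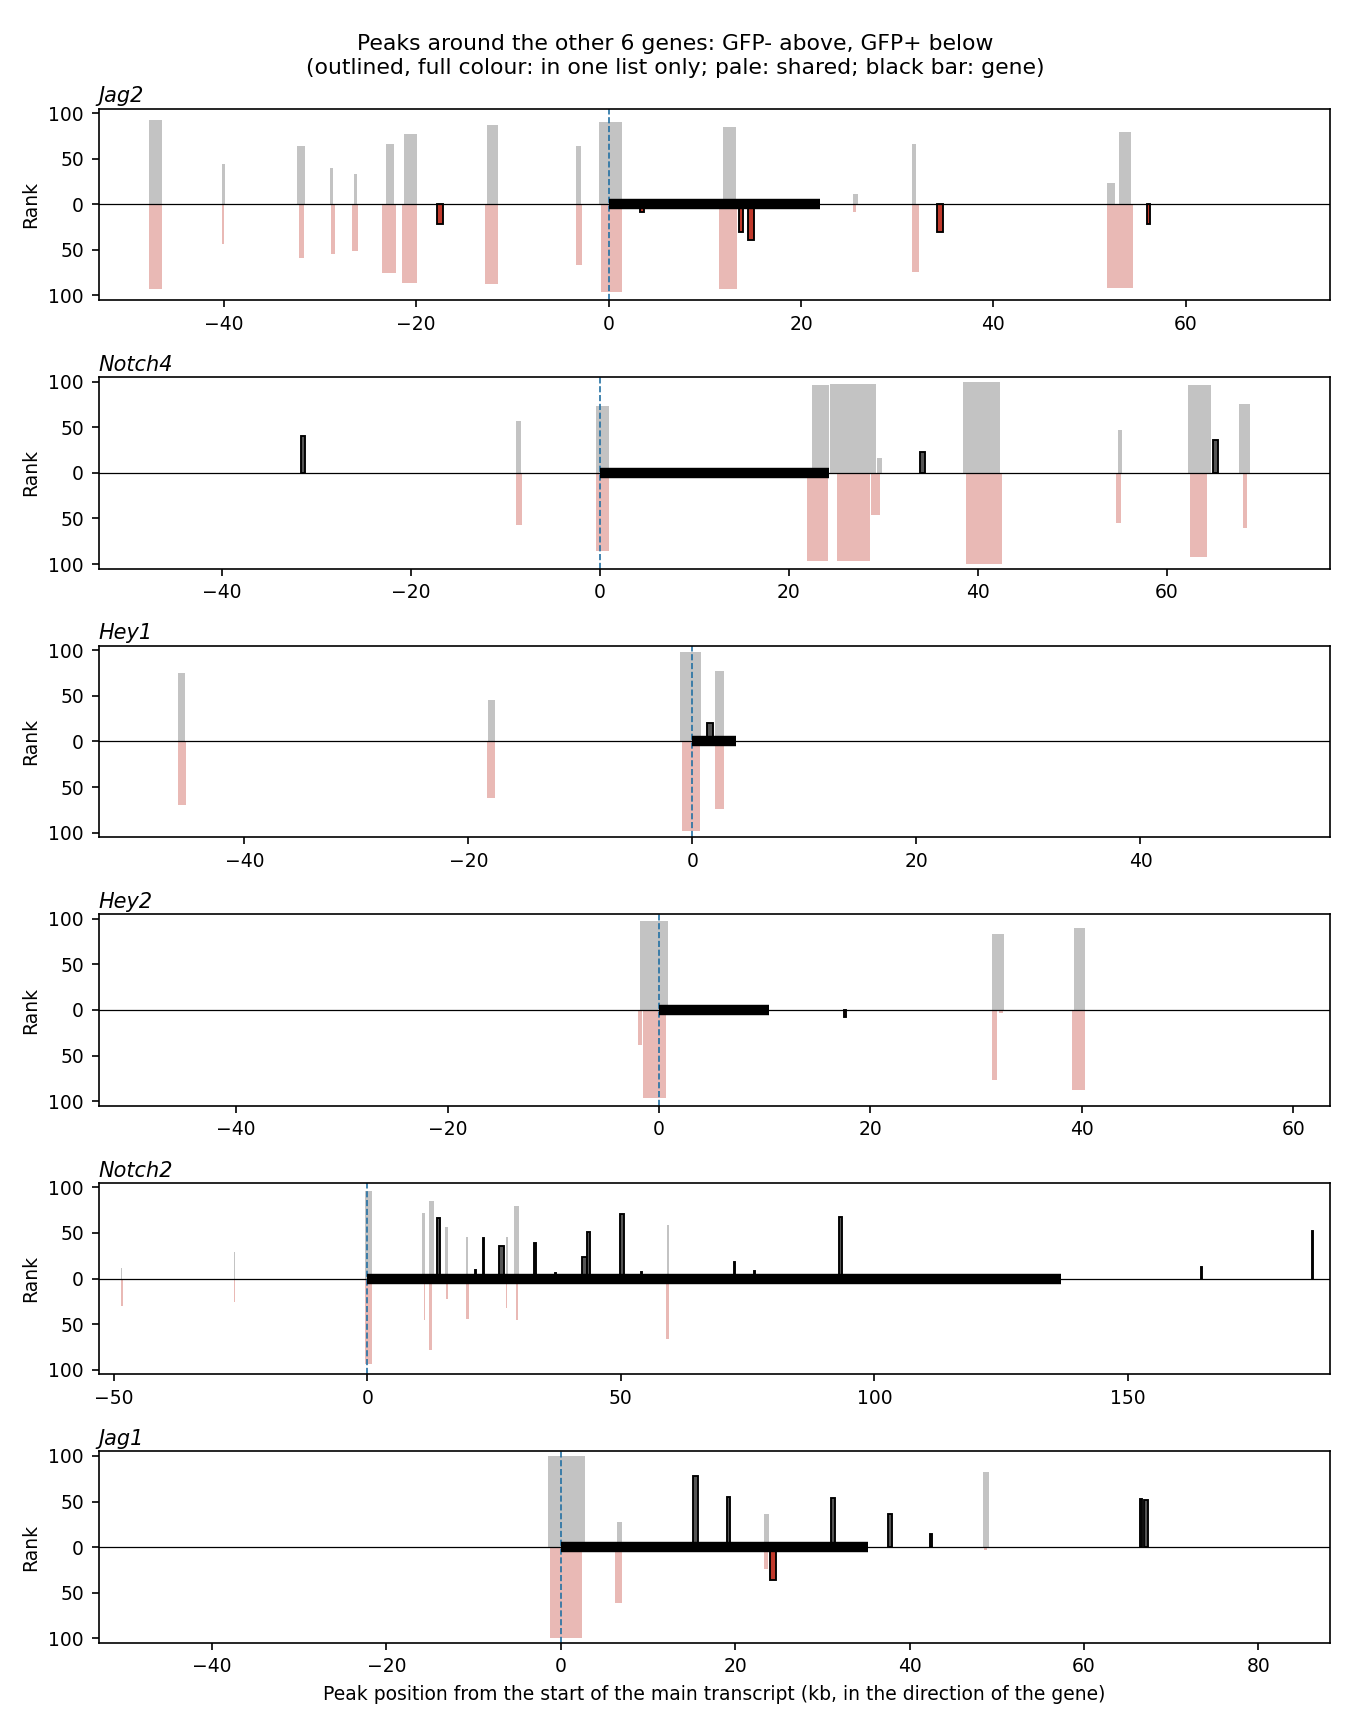
Peaks in the windows of Jag2, Notch4, Hey1, Hey2, Notch2 and Jag1 by distance from the main start (kb, in the direction of the gene), with rank in its own list as height, GFP- nuclei above and GFP+ nuclei below. Outlined bars are peaks without a partner and the black bar is the gene; Notch2 has 15 outlined GFP- peaks and no outlined GFP+ peak, and Jag2 has 6 outlined GFP+ peaks and no outlined GFP- peak.

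Counted over the gene and 50 kb on either side, the endothelial and mural genes differed in which list held the unpartnered peaks. Around the 5 endothelial genes, 18 of 78 GFP+ peaks (23.1%, Wilson 95% interval 15.1 to 33.6%) had no GFP- partner, and 7 of 70 GFP- peaks (10%, 4.93 to 19.2%) had no GFP+ partner. In the windows of all protein-coding genes these shares were 12.7% and 28.2%, and over whole lists 13.4% and 30.3%. For the mural genes they were 1 of 29 GFP+ peaks (3.45%, 0.61 to 17.2%) and 13 of 41 GFP- peaks (31.7%, 19.6 to 47.0%), of which the GFP- share was near that of all windows. The interval of the mural GFP+ share, which rests on 1 peak, also held the 12.7% of all windows. The 2 genes of several cell types had 1 of 15 (6.67%, 1.19 to 29.8%) and 22 of 36 (61.1%, 44.9 to 75.2%). Hey2 had 1 of 6 GFP+ peaks and 0 of 3 GFP- peaks, too few for a share to be read. The intervals cover counting error only, and peaks of a window are not independent of each other.

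Within the endothelial class, the unpartnered GFP+ peaks belonged to Notch1 (7 of 31), Jag2 (6 of 20) and Dll4 (5 of 14), and Notch4 (0 of 9) and Hey1 (0 of 4) had none. The covered length does not use overlap. It went from 10.2 kb in GFP- to 15.5 kb in GFP+ nuclei for Dll4, from 21.7 to 26.4 kb for Notch1 and from 13.8 to 18.9 kb for Jag2. For Notch3 it went from 15.5 to 8.91 kb, for Heyl from 16.9 to 9.58 kb, for Notch2 from 13.0 to 5.09 kb and for Jag1 from 8.78 to 5.96 kb. Unpartnered peaks were small: their median rank was 26.1 in GFP+ and 38.9 in GFP- nuclei, against 56.3 and 56.8 for all peaks of these windows, and only 3 GFP+ and 15 GFP- unpartnered peaks lay in the upper part of their list, above rank 50.

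**Figure D4:**
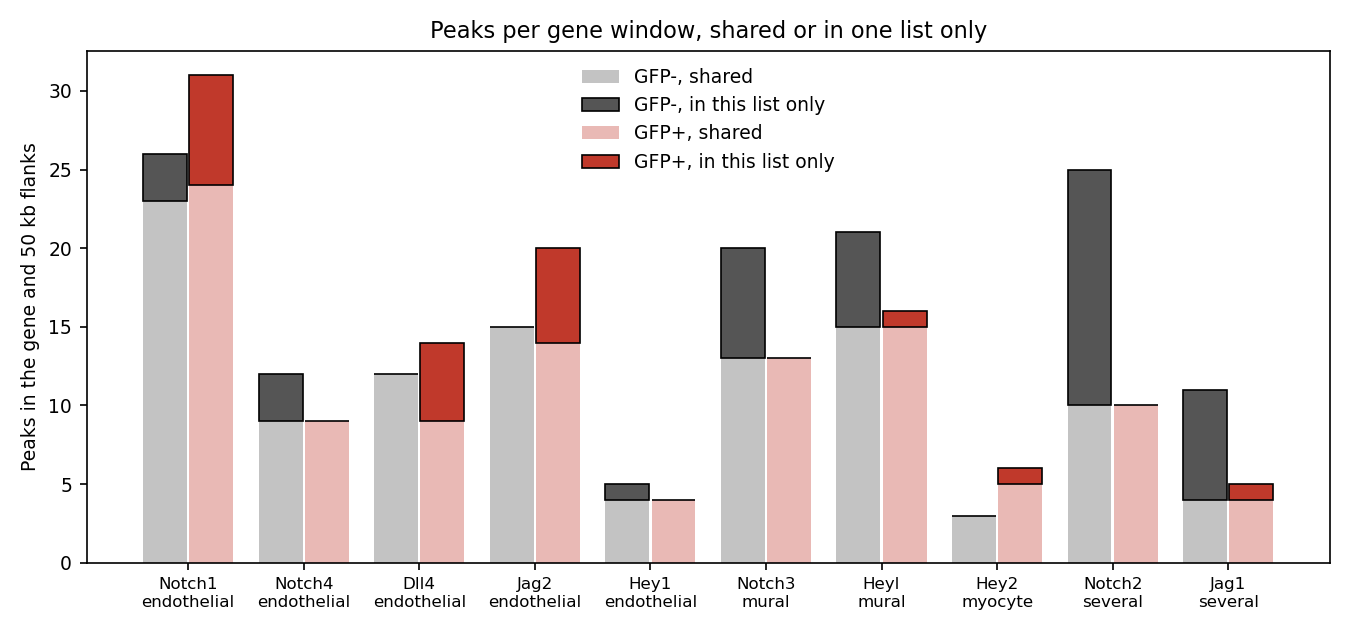
Number of peaks in each gene and its 50 kb flanks, with GFP- nuclei in grey and GFP+ nuclei in red, shared peaks in pale colour and unpartnered peaks in full colour with an outline on top. Unpartnered GFP+ peaks stand on Notch1, Dll4 and Jag2 (7, 5 and 6), and unpartnered GFP- peaks are most numerous on Notch2 (15), Notch3 and Jag1 (7 each).

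Where both populations had a peak, the ranks can be compared directly. The windows held 102 shared regions with a median difference of -1.51 points, beside -1.80 for all 53996 shared regions of the genome. Of the 102, 9 were higher and 12 lower, where 5.07% and 12.1% of all shared regions were. The 57 regions of endothelial genes had 7 higher and 3 lower, and 5 of the 7 were in Notch1 and 2 in Dll4. The 28 regions of mural genes had 1 higher and 5 lower, and 23 of the 28 (82.1%) had a lower rank in GFP+ nuclei, as 34871 of all 53996 shared regions (64.6%) did. By area per bp 18 of the 28 did (64.3%), beside 57.3% of all. Among the 14 regions of Notch2 and Jag1, 1 was higher and 4 were lower. Of the 102 regions 39 differed by no more than 5 points, among them 23 of endothelial and 10 of mural genes.

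**Figure D5:**
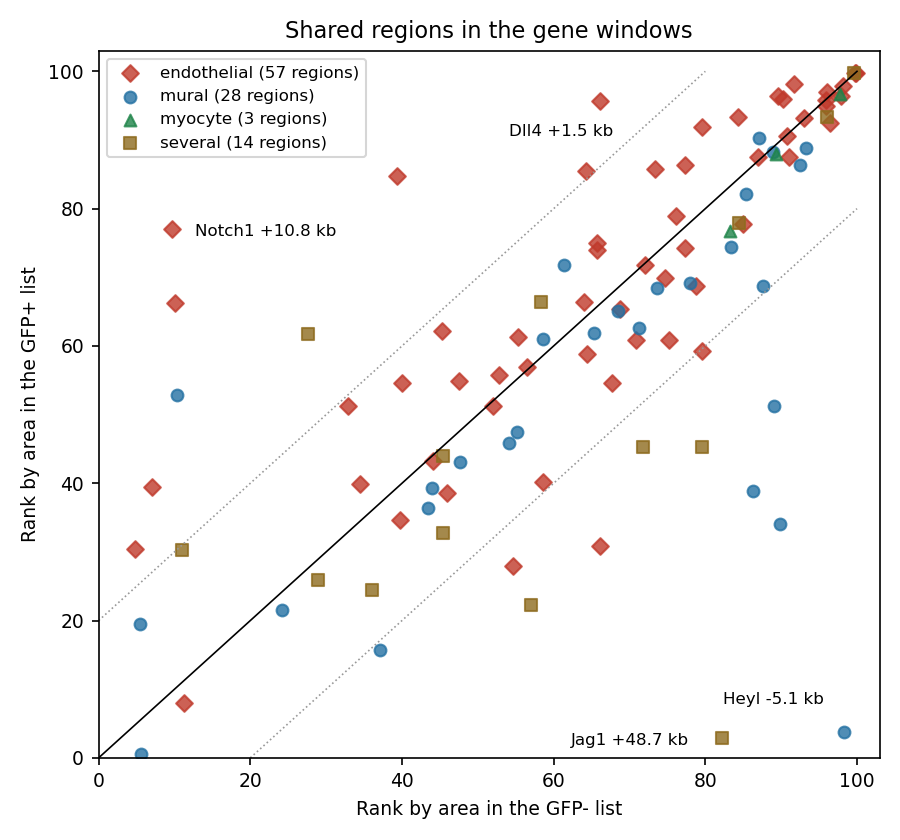
Rank by area in the GFP- list (x axis) and in the GFP+ list (y axis) of the 102 shared regions, coloured by the class of the gene, with the line of equal rank and dotted lines at 20 points on either side. Notch1 and Dll4 regions stand above the upper dotted line, and Heyl -5.1 kb and Jag1 +48.7 kb lie at the lower right, at ranks of 98.3 and 3.83 and of 82.2 and 2.85.

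The words of transcription factors were counted in the 200 bp around each summit. The words were AGGAAGT for ETS factors, CCATTGT for SOX, GTGGGAA for RBPJ, TGANTCA for AP-1, AGATAAG for the GATA family, TGTTTAC for FOX, the E-box CACGTG for Hey proteins, and the usual degenerate forms of MEF2 and of the SRF CArG box. Both strands were searched, and matches of different words could overlap. The RBPJ word was found more often than in all peaks of the same kind. It lay in 14 of 108 shared GFP- peaks (13.0%, Wilson 95% interval 7.88 to 20.6%), in 12 of 107 shared GFP+ peaks (11.2%, 6.53 to 18.6%) and in 4 of 21 unpartnered GFP+ peaks (19.0%, 7.67 to 40.0%). Among all peaks of the same kinds, the shares were 4.51%, 4.55% and 5.79%. Those were the only 3 of 36 shares (9 words in 4 kinds of peaks) whose interval left out the share of all peaks, and the shared peaks of both lists are largely the same DNA. In 400 bp windows the RBPJ word lay in 17.6% of shared GFP- peaks (11.6 to 25.8%) and 18.7% of shared GFP+ peaks (12.4 to 27.1%), where all such peaks gave 9.05% and 9.21%, while the 19.0% of unpartnered GFP+ peaks had an interval that held the 10.6% of all. The base composition also differed, with a median GC content of 58.0% in the shared peaks of these windows and 53.5% in all shared peaks, and its part was not tested.

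The RBPJ words were spread over several genes. In the unpartnered GFP+ peaks the RBPJ words lay, among others, in Dll4 at -11.3 kb and in Notch1 at -46.6 and -43.9 kb. In the shared peaks the words lay, among others, in the start peaks of Hey2 and Heyl, in the Dll4 intron 3 summit and at +9.21 and +12.9 kb in Notch1 intron 2. The ETS word, which many endothelial enhancers carry, lay in 4 of 21 unpartnered GFP+ peaks (19.0%) and in 0 of 42 unpartnered GFP- peaks, while 14.0% and 7.91% of all such peaks held it. For the GFP- peaks the upper interval bound at 0 of 42 was 8.38%, and the difference from all peaks was thus not detectable. The SOX word was in none of the 21 unpartnered GFP+ peaks, against 5.86% of all, and the AP-1 word in 5 of 42 unpartnered GFP- peaks (11.9%), against 14.8% of all.

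By area, the rest of the pathway differed little at its starts. Of 61 further pathway genes, 58 had a start peak, 2 were higher and 2 lower in GFP+ nuclei, and the median difference was -0.19 points. Over all genes with a start peak, 1.95% were higher and 7.34% lower. The higher genes were Sox17, an arterial transcription factor gene with no GFP- start peak and a GFP+ rank of 91.3, and Egfl7, which went from 72.6 to 98.7. Mfap5, a gene of matrix-producing cells whose product can bind Notch ligands, went from 75.4 to no peak, and Dtx4, of the Deltex family of Notch regulators, from 95.7 to 67.7. By area per bp, 4 pathway genes were higher and 6 lower, beside 3.2% and 9.73% of all genes. The nuclear machinery was open in both populations: Rbpj ranked 99.6 in each, and all 9 nuclear genes and all 8 protease genes had start peaks in both lists, with GFP+ ranks of at least 79.8. Among the fringe genes, whose products modify the receptors, Lfng ranked 84.6 and 87.0, Mfng 61.0 and 79.1, and Rfng 81.5 and 79.8. Hes1, the best known Notch target, ranked 99.9 in both lists. The arterial genes Efnb2 and Gja5 ranked 97.7 and 99.5 and 75.9 and 77.0. Gja4 and Cxcr4, from the same list of targets, went the other way, from 82.0 to 71.6 and from 73.7 to 65.1. The venous genes Nr2f2 and Ephb4 also had high ranks in both lists, at 98.0 and 97.3 and at 98.7 and 99.7.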

How the data were processed

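ATAC-Seq libraries of sorted heart nuclei, 2 GFP- and 2 GFP+, were grouped by their labels. Per the paper and the labels' processing notes, fastp, Bowtie2 (mm10; version 2.3.5.1 in the labels, another in the paper), SAMtools and Picard handled trimming, mapping, filtering and duplicates, after which libraries were brought to equal depth and Genrich called peaks from both replicates jointly, without mitochondrial and blacklisted DNA. The deposited area is a signal that the authors' caller summed along each peak, with a minimum of 200, and it set the ranks. The deposited score has an upper limit of 1000 and was not used. The deposited -log10 p-value belongs to the summit and served as an alternative for ranking. Read depth per library is not analysed here, so the precision of a rank is unknown, and longer or merged peaks gain area.

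Peaks were joined to GENCODE M21 on GRCm38.p6, where 0 peaks ran past a chromosome end. The main start is that of the longest protein-coding transcript, and a peak belongs to a window by its summit. Ranks, overlaps, Wilson 95% intervals and word matches were computed in Python 3.11.15 (numpy 2.4.6, pandas 2.3.3, scipy 1.17.1, pysam 0.24.0, and for figures matplotlib 3.10.9), and the scripts were tested on simulated data. Promoter sequence came from RefSeq on GRCm38.p6 and was matched for 8 of the 10 genes. The genes, classes, lists and words were chosen with earlier results of these data known. By rule, the text names all 10 genes, every start peak, the 3 unpartnered peaks of highest rank, the 3 shared regions with the largest difference in each direction, pathway genes beyond 20 points and the 3 genes most like Dll4 and Notch3. Other regions, other pathway and marker genes and the printed sequences were chosen after their values were seen. No test was made, because each population has 1 pooled list. A peak upstream of Dll4 and a region in the Notch3 window are counted but not reported here singly.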

Additional observations from a re-analysis of the deposited data

How the results depend on the processing

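No paired analysis was possible because both replicates of a population were pooled into 1 peak list before deposit, so no replicate could be left out either. Of 190 alternative values, 153 stayed within their tolerance (5 rank points, 1.5 times for counts, or the Wilson interval for shares) and 37 moved. Changes of sign were counted for the starts of the genes and for medians, not for single shared regions. In that count, 0 differences beyond 20 points changed sign. Single regions could: the Notch2 region at +11.1 kb went from -26.5 points by area to 1.25 by area per bp. Of the counted differences near 0, with sizes of at most 1.34 points, 13 changed sign by summit p or area per bp, to at most 6.86 points on the other side. They include the start medians of the endothelial class (-0.19 by summit p) and the myocyte gene (1.19 and 0.83), and Notch4 (-0.47 and -6.86). Dll4 was higher and Notch3 lower under every ranking measure. Heyl passed the limit with all annotated starts, and 1 gene, Notch3, was lower with 5′ ends or protein-coding starts only. With the upper part of each list (above rank 50) Notch3 lost its only peak and 1 gene, Heyl, was lower. The median of the mural genes was -51.1 by area per bp and -10.6 with the upper part. By area per bp, 4 pathway genes were higher and 6 lower, where 3.2% and 9.73% of all genes were, and 20 of 102 shared regions were lower, beside 16.6% of all. By summit p 19 were, beside 12.3%. The shares of unpartnered peaks depended on the overlap required. With 50% of both peaks, they were 46.0% for all GFP- peaks, 32.9% for endothelial and 48.8% for mural genes, and 36.7%, 39.7% and 27.6% for GFP+ peaks, with 66.7% for Hey2, and windows of all genes gave 37.5% for GFP- and 25.9% for GFP+ peaks. With the upper part they were 16.9%, 2.27% and 16.7% for GFP-, and 4.05%, 6.00% and 0% for GFP+ peaks, with 0% for Hey2 and 0% for the genes of several cell types, and windows of all genes gave 11.6% and 2.59%. The mural GFP+ share was 0% with flanks of 20 kb and 0% with peaks nearest to the gene. In 400 bp windows, 18.7% of shared GFP+ peaks held the RBPJ word, beside 9.21% of all. The causes of these shifts were not tested.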

Other observations

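The 10 genes have 50 annotated starts, 13 of them of protein-coding transcripts. A GFP- peak lay at 30 of the 50 and a GFP+ peak at 31. Of the 11 Notch1 starts 4 had a peak in either list, and of the 10 Jag2 starts 5 had a GFP- and 7 a GFP+ peak. The windows also hold other genes, from 0 around Hey1 to 9 around Notch4. Counting only peaks whose nearest gene was the gene itself, 30 of 93 GFP- peaks (32.3%) and 14 of 76 GFP+ peaks (18.4%) were without a partner, where the windows of all protein-coding genes gave 28.2% and 12.7%. The GC content of the 250 bp upstream of the start ran from 57.2% (Jag1) to 87.2% (Jag2) in the 8 genes with promoter sequence, above the median of 52.4% over all promoters in each of the 8.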
